A study of Danio rerio with 2 samples.

Results

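The Igf binding proteins are secreted proteins that hold insulin-like growth factors (Igf) outside the cell. The genes *igfbp1a*, *igfbp1b*, *igfbp2a*, *igfbp3*, *igfbp5b* and *igfbp7* were taken by their symbols, and 6 of 6 matched a row among the 36351 genes of the files. They held 20162 UMIs in the *akt*Δ/Δ library and 31258 in the WT library, where a UMI (unique molecular identifier) marks 1 captured mRNA.

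The study asked what Akt signaling does in the first embryonic artery. Both groups were zebrafish (*Danio rerio*) embryos of the *kdrl*:mCherry line at 24 hpf, a reporter that labels endothelial cells in red, and they had received no treatment. The mutant embryos, labelled Aktmutant and called *akt*Δ/Δ here, carried loss-of-function mutations in the 4 genes *akt1*, *akt2*, *akt3a* and *akt3b*, and the others were WT. Cells of pooled embryos were sorted for mCherry and made into 1 droplet library per genotype, so that cells are not replicates, no test between genotypes was made, and genotype and library cannot be told apart.

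Igf ligands signal through the Igf1 receptor, insulin receptor substrates and Akt. Igf binding proteins lengthen the life of the ligands, withhold them from the receptor or, once cut by proteases, release them. Mammalian IGFBP1 is raised by FoxO factors, which Akt keeps out of the nucleus, and by hypoxia. IGFBP3 is the main circulating carrier in mammals, and IGFBP2 and IGFBP5 also bind the matrix. IGFBP7 binds Igf weakly, and in mammals it is deposited in the walls of blood vessels.

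Levels are CPM, a gene's share of all UMIs in a set of cells scaled to a fixed total, with exact Poisson 95% intervals. Changes are log2 ratios with the *akt*Δ/Δ level over that of WT. All intervals cover counting error only, and where few cells carry most UMIs they are too narrow. There were 9464 cells in the *akt*Δ/Δ and 16400 in the WT library, with medians of 8247 and 5930.5 UMIs per cell. Between them 225 barcodes were shared. Clustering gave 21 clusters, of which 8 were high in both *kdrl* and *cdh5* and are called endothelial, with 6503 *akt*Δ/Δ and 8825 WT cells. They made up 68.7% of the kept *akt*Δ/Δ cells and 53.8% of the kept WT cells. The rest included erythroid-like, neural, myeloid, epidermal and muscle-like cells, so the sorted cells went beyond the labelled endothelial type. It also held a shallow unnamed cluster of 872 *akt*Δ/Δ and 1914 WT cells, with median depths of 686 and 876.5 UMIs. That cluster had the highest mean *kdrl* and *cdh5* of those outside the endothelial set. Whether it holds endothelial cells was not tested. Of the mutated genes, *akt2* was at 9.08 CPM in *akt*Δ/Δ and 13.3 CPM in WT endothelial cells, a log2 ratio of -0.55 (-0.71 to -0.38). *akt3b* had a log2 ratio of -0.14 (-0.33 to 0.05), *akt3a* had 43 and 36 UMIs, and *akt1* had 1 and 2 UMIs in the *akt*Δ/Δ and WT cells. By qRT-PCR of sorted WT endothelial cells, the paper reports *akt1* as the most highly expressed of the isoforms it detected. In whole mutant embryos of a later age, it reports a strong reduction of each *akt* mRNA. The few *akt1* UMIs here therefore do not show that the gene is absent from endothelial cells. How fully these counts capture *akt1* was not tested. A 3′ count does not show whether a mutant transcript makes protein.

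The members differed in where their UMIs lay. Endothelial clusters held 95.1% of *igfbp7*, 77.4% of *igfbp1a*, 87.6% of *igfbp3* and 60.5% of *igfbp2a* UMIs in the *akt*Δ/Δ library. In the WT library the endothelial shares of the UMIs were 88.3% for *igfbp7*, 67.8% for *igfbp1a*, 79.3% for *igfbp3* and 32.0% for *igfbp2a*, of which basal epidermis-like cells held 46.3% there. *igfbp5b* and *igfbp1b* lay mostly elsewhere, with 5.56% and 4.41% of their UMIs in endothelial clusters in *akt*Δ/Δ and 3.98% and 4.49% in WT. Since more of the *akt*Δ/Δ cells were endothelial, a ratio over all cells mixes level and composition. Over all cells *igfbp7* was at 139.6 CPM in both libraries, although it was lower in *akt*Δ/Δ endothelial cells.

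**Figure D1:**
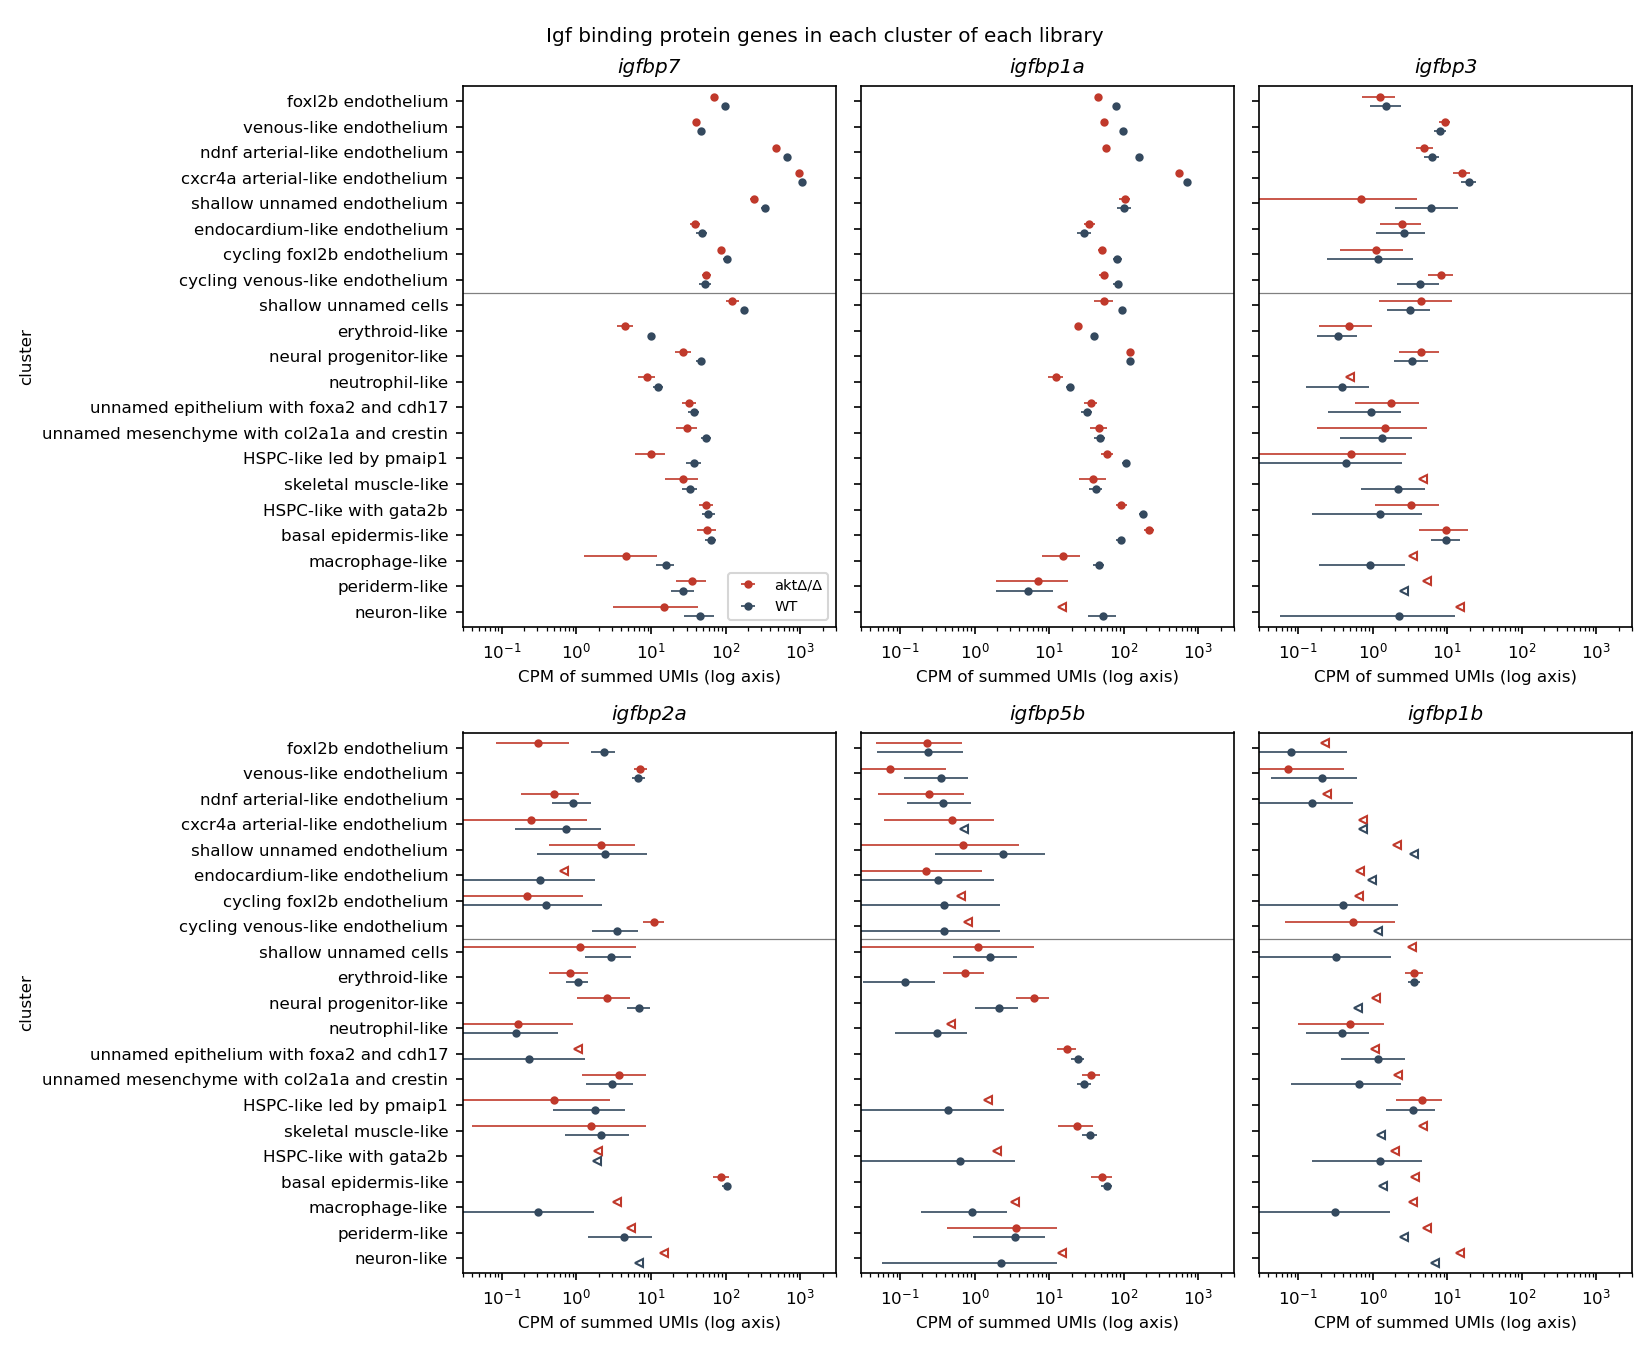
CPM of the 6 genes (log axis) in each cluster of the *akt*Δ/Δ (red, upper) and WT (dark, lower) library, with exact Poisson 95% intervals, which run off the left edge where counts were few. Open triangles mark clusters with 0 UMIs, placed at the level of 3 UMIs, and the grey line parts the 8 endothelial clusters (top) from the others. *igfbp7* and *igfbp1a* were highest in the cxcr4a arterial-like cluster of both libraries, and *igfbp2a* and *igfbp5b* in basal epidermis-like cells. *igfbp1b* was highest in erythroid-like cells and the HSPC-like cluster led by pmaip1, with few UMIs elsewhere.

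*igfbp7* (LL0000012548) was highest in the arterial-like endothelial clusters. In the arterial-like cluster led by *cxcr4a*, a chemokine receptor gene, it was at 953 CPM (923 to 984) in *akt*Δ/Δ and 1076 CPM (1045 to 1108) in WT. In the arterial-like cluster led by *ndnf*, a gene for a secreted neurotrophic factor, it was at 475.5 CPM (463 to 488) in *akt*Δ/Δ and 664 CPM (651 to 679) in WT. The order of these clusters was the same in both libraries, and their intervals did not overlap. The shallow unnamed endothelial cluster ranked 3 in both, at 239.5 CPM (215 to 266) in *akt*Δ/Δ and 338 CPM (300 to 380) in WT. The shallow unnamed cluster outside the endothelial set had 124 and 175 CPM, and the cluster led by *foxl2b* had 70.7 and 98.2 CPM. The venous-like cluster, rich in *stab2* and *dab2*, had 40.4 CPM in *akt*Δ/Δ and 47.5 CPM in WT, and the endocardium-like cluster, the inner lining of the heart, had 39.1 and 47.9 CPM. These last levels had overlapping intervals within each library, as the lowest of the 8. *igfbp1a* and *igfbp7* were among the 10 leading genes of the *cxcr4a* cluster and helped to define it, so their height there is a description. With the Igf genes left out of the clustering, the highest WT endothelial cluster had 1041 CPM of *igfbp7*.

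In endothelial cells as a whole *igfbp7* was at 215 CPM (211 to 219) in *akt*Δ/Δ and 299.5 CPM (295 to 304) in WT, from 12175 and 15880 UMIs. The log2 ratio was -0.48 (-0.51 to -0.44), short of the 1.5-fold used here to call a gene. Of 17247 genes with at least 20 UMIs in endothelial cells, 16% were at least 1.5-fold lower in *akt*Δ/Δ and 8% at least 1.5-fold higher, and the median log2 ratio was -0.09. *kdrl* itself, a Vegf receptor gene and the source of the reporter's promoter, had 281 CPM in *akt*Δ/Δ and 349 CPM in WT, a log2 ratio of -0.31. Per 100 *kdrl* UMIs, *igfbp7* had 188 UMIs in *akt*Δ/Δ and 171 in WT in the *cxcr4a* cluster, and 145 and 169 in the *ndnf* cluster. The direction of the *igfbp7* ratio in the *cxcr4a* cluster therefore depended on whether all UMIs or *kdrl* UMIs were the base. So it did in the venous-like cluster, with 19.7 UMIs per 100 *kdrl* UMIs in *akt*Δ/Δ and 17.4 in WT. The cycling cluster with *foxl2b* likewise had 34.2 and 31.3. The *ndnf*, noncycling *foxl2b*, endocardium-like and shallow unnamed endothelial clusters were lower in *akt*Δ/Δ on both bases, and cycling venous-like cells were higher on both.

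By the point value of its CPM, *igfbp7* was lower in *akt*Δ/Δ in 7 of the 8 endothelial clusters. The lowest ratios among the deeper clusters were -0.48 (-0.53 to -0.43) in the *ndnf* cluster and -0.47 (-0.60 to -0.35) in the cluster led by the forkhead gene *foxl2b*. The *cxcr4a* cluster had -0.18 (-0.24 to -0.11), and the ratios of the *ndnf* and *cxcr4a* clusters differed by -0.31 (-0.39 to -0.23). The interval included 0 in the endocardium-like cluster at -0.29 (-0.62 to 0.03), and in cycling venous-like cells the ratio was 0.05 (-0.27 to 0.38). A share of cells with an *igfbp7* UMI of 46.3% in *akt*Δ/Δ and 45.9% in WT hid the lower level, since *akt*Δ/Δ cells were deeper. With each cell thinned to 1000 UMIs, 16.7% (15.8 to 17.7) of *akt*Δ/Δ and 21.1% (20.2 to 22.0) of WT endothelial cells kept a UMI. Erythroid-like cells, which should lack the gene, kept 0.642% and 0.831% at median depths of 33501 and 21147.5 UMIs in *akt*Δ/Δ and WT, against 8478 and 5621 in endothelial cells. The thinned share of endothelial cells was above that of erythroid-like cells in both genotypes. In the deeper erythroid-like cells an equal amount of free RNA is a smaller share of the UMIs, so the 2 shares are not like for like. The part of free RNA in the *igfbp7* values was not tested.

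*igfbp1a* (LL0000012539) was at 88.6 CPM (86.1 to 91.0) in *akt*Δ/Δ and 151 CPM (147 to 154) in WT endothelial cells, from 5016 and 7986 UMIs. The log2 ratio was -0.77 (-0.82 to -0.72), and *igfbp1a* passed 1.5-fold. Among genes with at least 200 UMIs, 8.18% were as much lower in *akt*Δ/Δ, and *igfbp1a* was the only one of the 4 members with as many UMIs to be so. The call did not hold under every treatment of cells. As a mean of each cell's CPM the ratio was -0.49, with each cell thinned to 1000 UMIs -0.54, over all cells with a UMI of *kdrl* or *cdh5* -0.50, and with equal weight for each endothelial cluster -0.56, in each case lower in *akt*Δ/Δ but under 1.5-fold. *igfbp5b* was past the same fold at -0.81 (-2.03 to 0.35), on 11 *akt*Δ/Δ and 18 WT UMIs, and its interval included 0. No member was 1.5-fold higher.

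**Figure D2:**
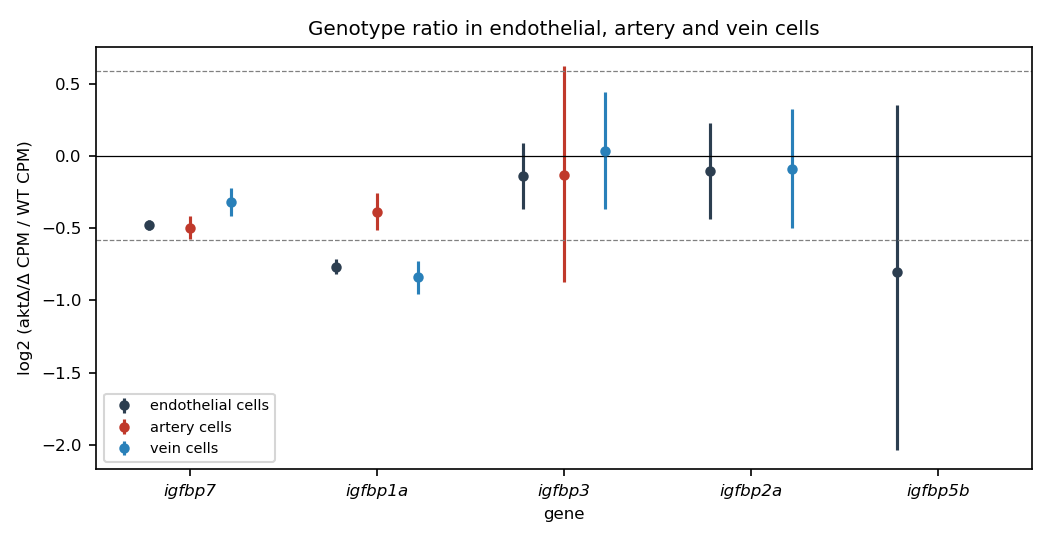
Log2 of *akt*Δ/Δ CPM over WT CPM for members with at least 20 UMIs in endothelial, artery and vein cells, with exact binomial 95% intervals. Dashed lines mark 1.5-fold. *igfbp1a* lay below the lower line in endothelial (-0.77) and vein cells (-0.84) and above it in artery cells (-0.39), while the intervals of *igfbp3* and *igfbp2a* included 0.

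Most *igfbp1a* UMIs came from few cells. In endothelial cells of at least 1000 UMIs, 79.9% of *akt*Δ/Δ and 75.6% of WT cells had none. The 10% of these cells with the most held 86.3% of the *igfbp1a* UMIs in *akt*Δ/Δ and 80.9% in WT, and the highest single cells had 67 and 88. *igfbp7* was spread more evenly, its top 10% holding 59.5% of UMIs in *akt*Δ/Δ and 57.1% in WT. Capping each cell at 10 UMIs of a gene, an alternative added after the data were seen, gave an endothelial ratio of -0.83 for *igfbp1a* and -0.53 for *igfbp7*. The cap keeps the highest cells and acts on raw UMIs, so at a given CPM it trims deeper cells more, and *akt*Δ/Δ endothelial cells were the deeper ones. Free RNA also has to be set beside this gene. Unthinned, 19.5% of *akt*Δ/Δ and 23.7% of WT endothelial cells had an *igfbp1a* UMI, and 21.2% and 23.3% of the far deeper erythroid-like cells did. At 1000 UMIs the shares were 6.30% (5.70 to 6.94) in *akt*Δ/Δ and 9.03% (8.42 to 9.66) in WT endothelial cells, against 1.71% and 3.33% in erythroid-like cells. Per 100 *kdrl* UMIs, *igfbp1a* had 245 UMIs in *akt*Δ/Δ and 173 in WT erythroid-like cells, above the 110 and 113 of the *cxcr4a* cluster. *igfbp7* had 45.2 and 43.6 there, below that cluster. The part of free RNA in the *igfbp1a* values was not tested.

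The genotype ratio of *igfbp1a* differed among the arterial-like clusters. In the *ndnf* cluster it was at 58.4 CPM (54.2 to 62.9) in *akt*Δ/Δ and 158 CPM (152 to 165) in WT, a ratio of -1.44 (-1.56 to -1.32). In the *cxcr4a* cluster it was at 558 CPM (535 to 581) in *akt*Δ/Δ and 709 CPM (683 to 735) in WT, a ratio of -0.35 (-0.43 to -0.27). The ratios differed by -1.09 (-1.24 to -0.95) between these clusters, an interval from a normal approximation on the counts. At 1000 UMIs, 5.41% of *akt*Δ/Δ and 11% of WT cells of the *ndnf* cluster had a UMI, and 29.7% and 29.7% of the *cxcr4a* cluster. The fold in the *ndnf* cluster was smaller over cells: -0.90 as a mean of each cell's CPM and -0.82 after thinning, against -1.41 with UMIs capped at 10. In the *cxcr4a* cluster these alternatives gave -0.22, -0.32 and -0.40. The gap between the clusters was therefore smaller by the mean of each cell's CPM and after thinning than by summed UMIs. Clustered without the Igf genes, the counterparts of the *ndnf* and *cxcr4a* clusters, which shared 97.2% and 92.6% of their cells, had ratios of -1.39 and -0.29. Per 100 *kdrl* UMIs, the *ndnf* cluster had 17.8 *igfbp1a* UMIs in *akt*Δ/Δ and 40.2 in WT.

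**Figure D3:**
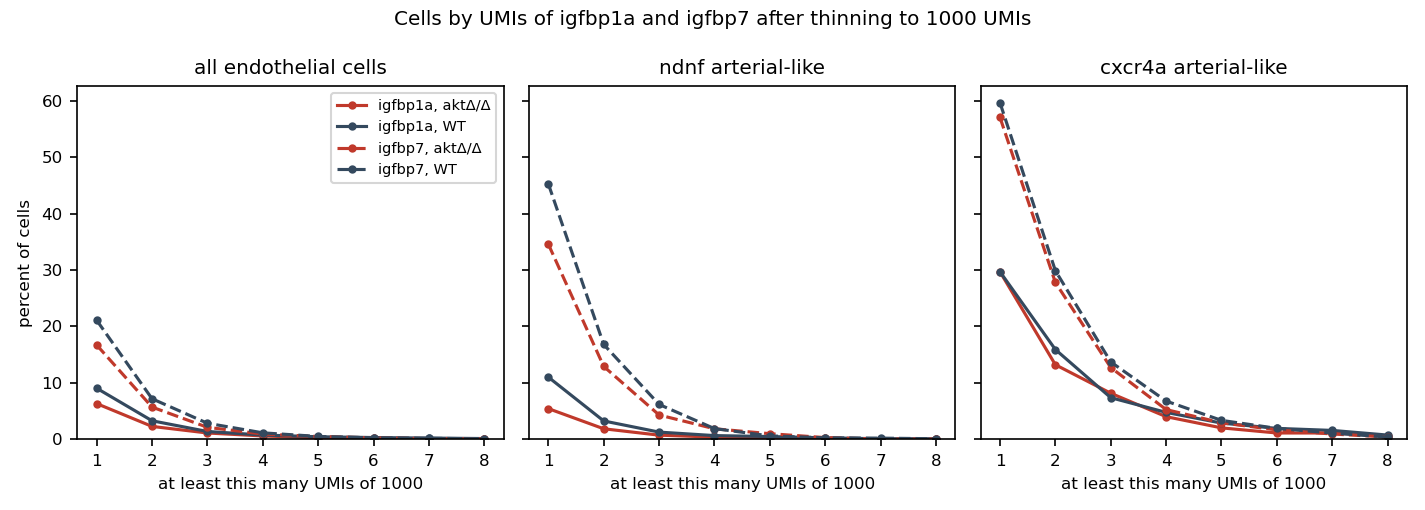
Percent of cells with at least the given number of UMIs of *igfbp1a* (solid) or *igfbp7* (dashed) after thinning each cell to 1000 UMIs, in *akt*Δ/Δ (red) and WT (dark). The curves of *igfbp1a* start at 5.41% and 11% of *akt*Δ/Δ and WT cells in the ndnf arterial-like cluster, and at 29.7% in both genotypes in the cxcr4a arterial-like cluster.

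Venous-like and *foxl2b* cells lay between these. *igfbp1a* was at 45.8 CPM in *akt*Δ/Δ and 79.3 CPM in WT in the *foxl2b* cluster, a ratio of -0.79 (-0.94 to -0.64). It was at 54.7 CPM in *akt*Δ/Δ and 99.2 CPM in WT in the venous-like cluster, a ratio of -0.86 (-0.99 to -0.73). Cycling cells followed their noncycling kin, with -0.67 (-0.95 to -0.40) in the cycling *foxl2b* cluster and -0.61 (-0.89 to -0.32) in cycling venous-like cells. The endocardium-like cluster had 34.8 CPM in *akt*Δ/Δ and 29.5 CPM in WT, a ratio of 0.24 (-0.14 to 0.63). The shallow unnamed endothelial cluster had 104 and 101.5 CPM, a ratio of 0.03 (-0.37 to 0.43). The venous-like and endocardium-like ratios differed by -1.10 (-1.49 to -0.70). In *akt*Δ/Δ the levels of the *ndnf*, venous-like and both cycling clusters overlapped their neighbours in order, while in WT the *ndnf* cluster stood clear of all the others below the *cxcr4a* cluster.

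Outside the endothelium *igfbp1a* was also lower in *akt*Δ/Δ in blood cells. Erythroid-like cells had 24.6 CPM in *akt*Δ/Δ and 39.9 CPM in WT, a ratio of -0.70 (-0.87 to -0.53). In the same cells *kdrl*, an endothelial transcript that erythroid cells should lack, had a ratio of -1.21 (-1.47 to -0.95). The cluster of hematopoietic stem and progenitor (HSPC)-like cells with *gata2b* had 93.5 CPM of *igfbp1a* in *akt*Δ/Δ and 182 CPM in WT, a ratio of -0.96 (-1.26 to -0.66). The *akt*Δ/Δ value came from 29 cells with a UMI among 134, and 3 cells held 77 of 142 UMIs. In WT 62 of 177 cells had a UMI, and 3 held 91 of 289 UMIs. *kdrl* in that cluster had a ratio of -0.13 (-0.47 to 0.21). The part of free RNA in the ratios of these blood cells was not tested. Neural progenitor-like cells had 122 CPM in both libraries, with a ratio interval of -0.20 to 0.19 around 0. Basal epidermis-like cells went the other way, with 218 CPM in *akt*Δ/Δ and 91.4 CPM in WT. The *akt*Δ/Δ value there rested on 64 cells, of which 3 held 135 of 179 UMIs, and the ratio was 0.17 with UMIs capped at 10 and 1.12 as a mean of each cell's CPM.

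**Figure D4:**
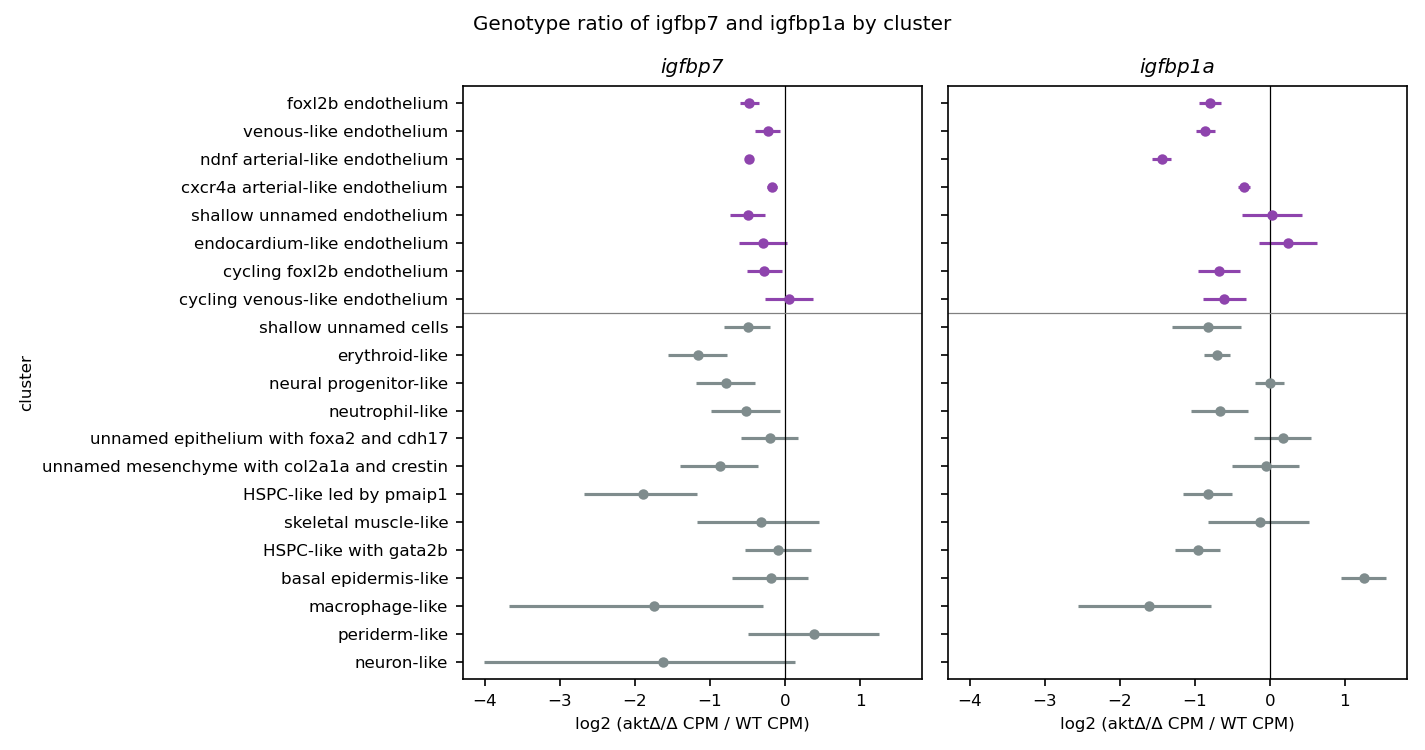
Log2 of *akt*Δ/Δ CPM over WT CPM of *igfbp7* and *igfbp1a* in each cluster with at least 20 UMIs and some in both libraries, with exact binomial 95% intervals. Endothelial clusters are purple and above the grey line, the others grey. Among endothelial clusters *igfbp1a* ran from -1.44 in the ndnf arterial-like to 0.24 in the endocardium-like cluster, and *igfbp7* from -0.50 to 0.05. In some of the other clusters *igfbp7* lay further below 0, such as the erythroid-like one (4.53 CPM in *akt*Δ/Δ and 10.1 CPM in WT).

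Artery cells were called by detection of all 3 arterial markers *dll4*, *efnb2a* and *notch3*, and vein cells by all 3 of *stab2*, *dab2* and *lyve1b*. This gave 401 *akt*Δ/Δ and 487 WT artery cells, and 2136 and 3109 vein cells. In artery cells *igfbp7* was at 509 CPM (489 to 529) in *akt*Δ/Δ and 717 CPM (691 to 744) in WT, a ratio of -0.50 (-0.57 to -0.42). *igfbp1a* was at 192 CPM (180 to 205) in *akt*Δ/Δ and 251 CPM (236 to 267) in WT artery cells, a ratio of -0.39 (-0.52 to -0.26). This *igfbp1a* ratio was negative in 14 of 14 alternatives, but only 10 lay within its interval. It was -0.135 as a mean of each cell's CPM, -0.565 with 2 of 3 markers and -0.591 with UMIs capped at 10. After thinning to 1000 UMIs it was -0.907, on 6 *akt*Δ/Δ and 16 WT artery cells. Of 10407 genes tested in artery cells 10.3% were 1.5-fold lower and 10.8% higher, and 0 of 3 members were either. The artery class mixed both arterial-like clusters: the *ndnf* cluster gave 62.6% of its *akt*Δ/Δ and 72.5% of its WT cells, and the *cxcr4a* cluster 21.9% and 18.7%. Within artery cells of the *ndnf* cluster *igfbp1a* had 59.7 CPM in *akt*Δ/Δ and 145 CPM in WT, a ratio of -1.28 (-1.53 to -1.03). Within those of the *cxcr4a* cluster it had 797 and 901 CPM, a ratio of -0.18 (-0.34 to -0.01). The small ratio over all artery cells thus joined a large and a small one, weighted by a different makeup in each genotype.

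In vein cells *igfbp1a* was at 44.2 CPM (41.5 to 46.9) in *akt*Δ/Δ and 79.1 CPM (75.5 to 82.9) in WT, a ratio of -0.84 (-0.95 to -0.73). *igfbp7* was at 68.2 CPM in *akt*Δ/Δ and 84.9 CPM in WT, a ratio of -0.32 (-0.41 to -0.22). Of 14437 genes tested in vein cells 15.5% were 1.5-fold lower in *akt*Δ/Δ and 7.72% higher, and of those with at least 200 UMIs 7.6% were lower. *igfbp1a* was the single member of 4 past the fold in vein cells, at either minimum. The *igfbp1a* ratios of artery and vein cells differed by 0.46 (0.29 to 0.63), and those of *igfbp7* by -0.18 (-0.30 to -0.05). Cells with all markers of both classes, 87 in *akt*Δ/Δ and 131 in WT, had 26.3 CPM (18.6 to 36.1) of *igfbp1a* in *akt*Δ/Δ and 190 CPM (168 to 215) in WT. These values came from 20 and 49 cells with a UMI, and from 38 and 256 UMIs, of which 3 cells held 13 and 98. Cells with both marker sets had median depths of 15171 UMIs in *akt*Δ/Δ and 9641 in WT, against 11158 and 7392 in artery cells. Doublets were left in, and their part in this class was not tested.

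*igfbp3* (LL0000012543) was a gene of low level. Most of its UMIs lay in endothelial clusters, among cells sorted for an endothelial reporter. Basal epidermis-like cells ranked 2 of 21 clusters in both libraries, below the *cxcr4a* cluster. They had 9.73 CPM (4.2 to 19.2) in *akt*Δ/Δ and 9.74 CPM (6.03 to 14.9) in WT, from 8 and 21 UMIs. In endothelial cells *igfbp3* was at 5.51 CPM in *akt*Δ/Δ and 6.07 CPM in WT, and its ratio of -0.14 (-0.37 to 0.09) included 0. The *cxcr4a* cluster had 15.7 CPM (12.1 to 20.1) in *akt*Δ/Δ and 19.6 CPM (15.5 to 24.3) in WT, and the venous-like cluster had 9.26 and 8.06 CPM. The *foxl2b* cluster had 1.24 CPM in *akt*Δ/Δ and 1.52 CPM in WT. *igfbp3* was therefore present in arterial-like and venous-like cells and low in the *foxl2b* cells in both libraries. In artery cells its ratio was -0.13 (-0.88 to 0.62), and in vein cells 0.04 (-0.37 to 0.44). In RefSeq's zebrafish assembly GRCz12tu, *igfbp3* and *igfbp1a* are neighbours, with 0 protein-coding genes between them. Over the 21 clusters their log2 levels had a Pearson r of 0.77, and *igfbp3* was the gene second most like *igfbp1a* among 13727, within the 20 most alike in WT but not in *akt*Δ/Δ. At 1000 UMIs, 1.81% of *akt*Δ/Δ endothelial cells with *igfbp1a* also had *igfbp3*, against 0.488% of those without, and in WT 2.77% against 0.406%, which rests on 7 and 21 cells with both. Both genes were highest in the *cxcr4a* cluster, so these pooled shares also carry differences between clusters. Within that cluster the shares were 1.83% against 1.29% in *akt*Δ/Δ and 3.98% against 0.675% in WT, on 3 and 10 cells with both. In *akt*Δ/Δ artery cells 0 cells had both.

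*igfbp2a* (LL0000012541) was highest in basal epidermis-like cells and, among endothelial clusters, in the venous-like ones by point value. Basal epidermis-like cells had 87.5 CPM (68.5 to 110) in *akt*Δ/Δ and 103.5 CPM (90.3 to 118) in WT, with 40.6% and 40.9% of cells carrying a UMI. Among endothelial clusters the noncycling venous-like one had 7.21 CPM (5.85 to 8.78) in *akt*Δ/Δ and 6.80 CPM (5.51 to 8.29) in WT. Neural progenitor-like cells were level with it in WT at 6.97 CPM (4.80 to 9.79), where 3 cells held 24 of 33 UMIs. They had 2.56 CPM (1.03 to 5.27) in *akt*Δ/Δ. The unthinned share of all endothelial cells with a UMI was 2.15% in *akt*Δ/Δ and 1.60% in WT. It was 2.35% and 2.02% in the far deeper erythroid-like cells. By CPM endothelial cells had 2.7 in *akt*Δ/Δ and 2.9 in WT, and erythroid-like cells 0.823 and 1.04. In the venous-like cluster the unthinned share was 6.90% and 4.30%. At 1000 UMIs the share was 0.196% and 0.238% in all endothelial cells and 0.699% and 0.541% in the venous-like cluster. At that depth 0 erythroid-like cells had a UMI, which by the exact interval allows up to 0.787% in *akt*Δ/Δ and 0.219% in WT. The endothelial ratio was -0.10 (-0.44 to 0.23) and that of vein cells -0.09 (-0.50 to 0.32). Of the endothelial clusters 2 had intervals clear of 0. Cycling venous-like cells had 11.1 CPM in *akt*Δ/Δ and 3.5 CPM in WT, from 40 and 9 UMIs, a ratio of 1.66 (0.59 to 2.89). The *foxl2b* cluster had 0.31 CPM in *akt*Δ/Δ and 2.32 CPM in WT, from 4 and 29 UMIs, a ratio of -2.90 (-4.87 to -1.40). Both counts came from several cells, with at most 2 UMIs in a cell.

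*igfbp5b* (LL0000012545) was a gene of epithelium, mesenchyme and muscle in these data. It was at 51.1 CPM (36.8 to 69.0) in *akt*Δ/Δ and 58.9 CPM (49.1 to 70.1) in WT basal epidermis-like cells. An unnamed mesenchymal cluster with *col2a1a*, a cartilage and notochord collagen gene, had 36.9 CPM in *akt*Δ/Δ and 29.5 CPM in WT. Skeletal muscle-like cells had 23.4 and 34.9 CPM, and an unnamed epithelium with *foxa2* had 17.4 and 24.4 CPM. None of these 4 ratios had an interval clear of 0. In endothelial cells it was at 0.194 CPM in *akt*Δ/Δ and 0.340 CPM in WT, with a UMI in 0.169% and 0.204% of cells. The unthinned shares of the far deeper erythroid-like cells were 0.427% and 0.237%, from only 2 and 4 cells with a UMI. Erythroid-like cells were at 0.755 CPM in *akt*Δ/Δ, where 1 cell held 10 of 11 UMIs, and at 0.116 CPM in WT. Whether the endothelial counts are background was not tested.

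*igfbp1b* (LL0000012540) is the second zebrafish copy of mammalian IGFBP1, and it did not share the pattern of *igfbp1a*. Erythroid-like cells held 77.9% of its UMIs in *akt*Δ/Δ and 80.1% in WT. They had 3.63 CPM (2.72 to 4.75) in *akt*Δ/Δ and 3.62 CPM (3.01 to 4.31) in WT, from 53 and 125 UMIs, a ratio of 0.01 (-0.49 to 0.48). The HSPC-like cluster led by *pmaip1*, a cell death gene, had 4.55 CPM in *akt*Δ/Δ and 3.52 CPM in WT, from 9 and 8 UMIs. Endothelial cells had 3 UMIs in *akt*Δ/Δ and 7 in WT. Over the 21 clusters the log2 levels of *igfbp1a* and *igfbp1b* had an r of -0.04. Where the copies are alike in sequence, reads may have been assigned to either, and this was not examined.

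The genes most alike in level over clusters differed by member, and all such r values are over 21 clusters that share libraries and depth. *igfbp7* was most like *zgc:112332* (r of 0.93), *tspan18a* (0.93) and *agtr1b* (0.92). *igfbp2a* was most like *rbp4* (0.91), a retinol carrier gene, *col4a4* (0.84) and *vcana* (0.84). *igfbp3* was most like *ccbe1* (0.82), a gene needed for lymphatic growth, *cyp1a* (0.80) and *ddr2l* (0.79). *igfbp5b* was most like *znf385a* (0.96) and the matrix genes *lama5* (0.94) and *col5a2a* (0.93). *igfbp1a* had a weaker best match, *LOC100003182* (0.78), and *fign* (0.77) followed *igfbp3*. *igfbp1b* was most like *LOC108180017* (0.93), *rell2* (0.93) and *gp9* (0.92). With each library taken alone, *LOC100003182*, *fign* and *ddr2l* were outside the 20 most alike in both. *agtr1b*, *cyp1a* and *rell2* were outside them in *akt*Δ/Δ only, and *gp9* in WT only.

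The Igf pathway beyond the binding proteins was then read in the same cells. Of 26 such genes in the files 14 had at least 20 UMIs in endothelial cells, of which 1 was 1.5-fold higher and 1 lower, with a median log2 ratio of 0.03, against -0.09 over all genes. Of the ligands, *igf2b* was at 24.5 CPM (23.2 to 25.8) in *akt*Δ/Δ and 31.1 CPM (29.6 to 32.6) in WT, a ratio of -0.34 (-0.45 to -0.24). *igf1* had 0 UMIs in the endothelial cells of either library, which by the exact interval allows up to 0.0651 CPM in *akt*Δ/Δ and 0.0696 CPM in WT. The insulin gene *insb* had a ratio of 0.07 (-0.25 to 0.39). Of the receptors, *igf1ra* had -0.08 (-0.30 to 0.14), *insra* had -0.01 (-0.24 to 0.22) and *igf1rb* had 0.50 (0.20 to 0.81). The inhibitory adaptors *grb10a* and *grb10b* had -0.07 and 0.11.

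The insulin receptor substrates parted. *irs2a* was at 1.09 CPM in *akt*Δ/Δ and 3.87 CPM in WT, from 62 and 205 UMIs, a ratio of -1.82 (-2.25 to -1.40). *irs2b* was at 8.37 CPM in *akt*Δ/Δ and 5.0 CPM in WT, from 474 and 265 UMIs, a ratio of 0.74 (0.52 to 0.97). *irs1* had 0.44 (0.21 to 0.68). The copies *irs2a* and *irs2b* thus lay on opposite sides of 1.5-fold, and they did so in artery cells (-1.66 and 1.11, with only 8 and 26 *akt*Δ/Δ UMIs) and in vein cells (-1.83 and 0.72) too. In artery cells 1 of 10 Igf genes was higher and 2 lower, *igf2b* joining *irs2a* at -0.60, where 10.8% of all genes were higher and 10.3% lower. In vein cells 3 of 13 were higher, *igf1rb*, *irs1* and *irs2b*, and 1 lower, where 7.72% of all genes were higher and 15.5% lower. The other family genes *igfbp2b*, *igfbp5a*, *igfbp6a* and *igfbp6b* had at most 5 UMIs in the endothelial cells of a library.

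**Figure D5:**
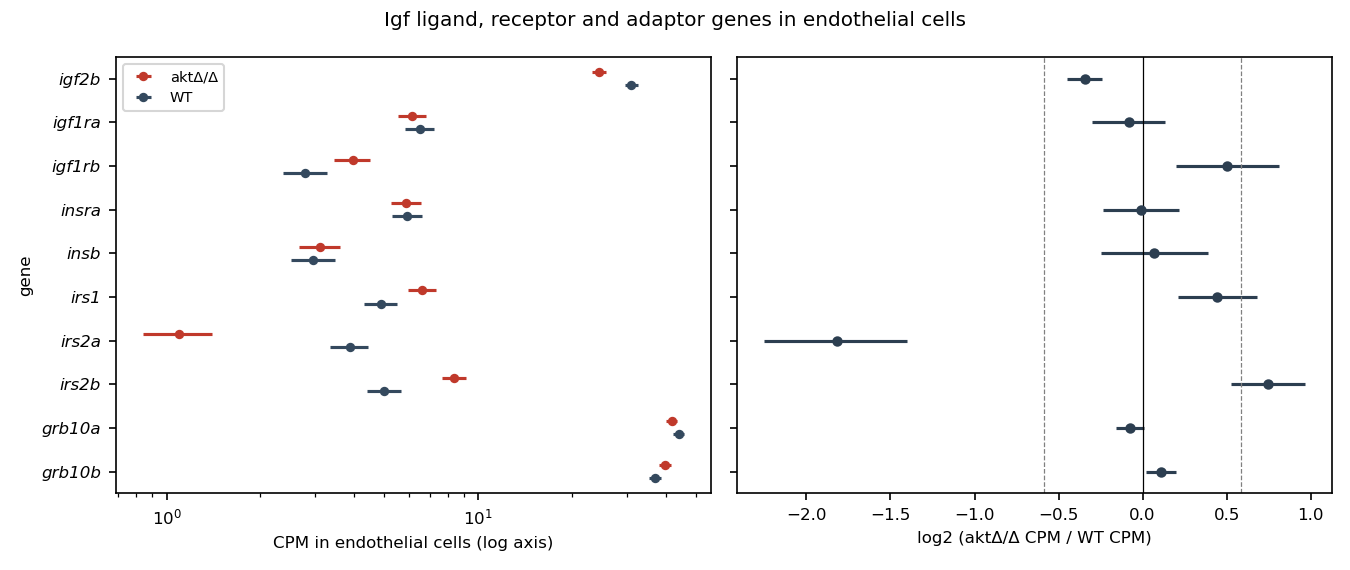
CPM (left, log axis) in *akt*Δ/Δ (red) and WT (dark) endothelial cells and log2 of *akt*Δ/Δ over WT CPM (right) of Igf pathway genes with at least 200 UMIs, with exact 95% intervals. Dashed lines mark 1.5-fold. *irs2a* (-1.82) and *irs2b* (0.74) lay outside them on opposite sides, and the 8 others lay between.

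Since mammalian IGFBP1 is a target of both FoxO and hypoxia, lists of such genes were read beside *igfbp1a*. Of 30 FoxO factors and known targets 26 could be read in endothelial cells, where 2 were 1.5-fold higher (*irs2b* and *angpt2a*) and 4 lower (*irs2a*, *pck2*, *trim63a* and *gadd45aa*), with a median of -0.04. These counts were near the 8% higher and 16% lower of all genes in endothelial cells, whose median was -0.09. *irs2a* and *irs2b* also stand in the Igf list. *gadd45aa*, a stress response gene, had 0.918 CPM in *akt*Δ/Δ and 2.17 CPM in WT, a ratio of -1.24 (-1.74 to -0.76), and *pck2*, a gene of glucose synthesis, had -1.34 (-2.01 to -0.70). *angpt2a* had 26 *akt*Δ/Δ and 14 WT UMIs, *trim63a* had 13 and 21, and both intervals included 0. Of 23 hypoxia genes 19 could be read, with 0 higher and 2 lower, against 8% and 16% of all genes, and a median of -0.24, against -0.09. The lower ones were *adma*, the gene of the vascular peptide adrenomedullin, at 3.67 CPM in *akt*Δ/Δ and 9.37 CPM in WT (-1.35, -1.59 to -1.12), and *plin2*, of lipid droplets, on 8 and 38 UMIs (-2.34).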

How the data were processed

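The authors deposited 1 matrix per library, written by Cell Ranger 5.0.0, whose values are UMI counts, not normalized, for each gene and each barcode already called a cell. The build and annotation behind them are not given in the sources used here. No sequence or coordinate of that build was therefore used, and the planned comparison of promoters and proteins was not made. RefSeq (GRCz12tu) served for names and for the order of neighbouring genes, and 6 of 6 members matched by symbol. Whether it is the build behind the counts is not known.

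After removal of cells under 200 detected genes and of genes found in fewer than 3 cells, 25860 cells remained. The libraries were merged without integration. Clustering used Seurat 5.3.0 (R 4.3.3) on 2000 variable genes, log-normalized to a depth of 10000, with 30 principal components and Louvain at resolution 0.6. That resolution was chosen because it gave the study's number of clusters, 21. Of the members 4 were among the variable genes. Endothelial clusters were those above the mean of the cluster means in both *kdrl* and *cdh5*. Clusters were named from a list of cell type markers, and those led by mixed or no markers were left unnamed. Named clusters could also hold markers of other types. In the basal epidermis-like cluster 5 of 6 basal epidermis markers were at least 2-fold above the other cells. There 5 of 7 fibroblast and 4 of 6 periderm markers were so too, and the name is therefore a loose one. Doublets were left in, and a set without the highest Scrublet scores (scanpy 1.11.5) was an alternative.

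UMIs were summed per class and library in Python 3.11.15 (pandas 2.3.3, numpy 2.4.6), and intervals came from scipy 1.17.1. CPM have exact Poisson 95% intervals, shares Clopper-Pearson intervals, and log2 ratios intervals from an exact binomial one on the counts. A ratio counted in a class where a gene had at least 20 UMIs, and was called past 1.5-fold. Likeness was Pearson's r of log2(CPM + 1) over clusters, as a mean of both libraries, among genes with at least 200 UMIs. For shares, cells were thinned to 1000 UMIs, leaving out 375 *akt*Δ/Δ and 430 WT endothelial cells that were shallower. TMM factors came from edgeR 4.0.16. The calculations were tested on simulated data. Depth differs between the libraries, which moves every share and every class defined by detected markers.

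The genes named were all members, the mutated *akt* genes, the 3 genes most alike to each member, Igf genes with at least 200 endothelial UMIs, and genes of the Igf, FoxO and hypoxia lists past 1.5-fold. *kdrl*, *igf1* and the further *igfbp* genes were named after their values were seen. The members and lists were chosen with earlier results of these data known.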

Additional observations from a re-analysis of the deposited data

Results flagged for a closer look

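*igfbp1a* in basal epidermis-like cells stood out because its ratio was positive, at 1.25 (0.95 to 1.55), where that of endothelial cells was negative, at -0.77, and both intervals were clear of 0. The difference between these cell types was not tested across samples, since each genotype has 1 library. The *akt*Δ/Δ value came from 18 cells with a UMI among 64, and 1 cell held 78 of 179 UMIs. The WT value came from 49 cells with a UMI among 215, and the highest cell held 24 of 197 UMIs. The ratio was 1.12 as a mean of each cell's CPM, 0.63 after thinning to 1000 UMIs and 0.17 with UMIs capped at 10 per cell. What set the highest cells apart was not tested.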

How the results depend on the processing

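No paired analysis was possible because each genotype has 1 library and the labels carry no replicate numbers. *igfbp1a* and *igfbp7* were lower in *akt*Δ/Δ endothelial cells in 15 of 15 alternatives, from -0.83 to -0.49 and from -0.53 to -0.15. TMM scaling gave -0.68 for *igfbp1a* and -0.39 for *igfbp7*, and median-of-ratios scaling -0.67 and -0.38. Thinning both libraries to the same depths gave -0.71 and -0.43. The mean of per-cell CPM gave -0.49 and -0.34, thinning each cell to 1000 UMIs -0.54 and -0.43, taking every cell with a UMI of *kdrl* or *cdh5* -0.50 and -0.15, equal weight per endothelial cluster -0.56 and -0.30, and UMIs capped at 10 per cell -0.83 and -0.53. With cells taken by *kdrl* or *cdh5*, *igfbp3* was at 0.24, and with thinning *igfbp5b* was at 0.45 on very few UMIs. The cause of these shifts was not tested. Equal weight per cluster gave no value for *igfbp1b* or *igfbp5b*, which had no endothelial cluster with enough UMIs.

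The number of members past 1.5-fold in endothelial cells was 2 of 5 tested, both lower, where 16% of all genes were lower and 8% higher. Of the 2, *igfbp5b* rested on 11 and 18 UMIs. The number was 0 with the mean of per-cell CPM, with thinning to 1000 UMIs, with equal weight per cluster and at 2-fold. It was 1 with cells taken by *kdrl* or *cdh5*, with clustering without Igf genes and with a minimum of 200 UMIs. In artery cells it was 0 of 3, where 10.3% of all genes were lower and 10.8% higher. There it was 2 after thinning, which left 6 *akt*Δ/Δ and 16 WT artery cells, and 1 with UMIs capped. In vein cells it was 1 of 4, where 15.5% of all genes were lower and 7.72% higher. There it was 4 after thinning, which left 248 and 597 vein cells, 0 at 2-fold and 2 with a minimum of 1 UMI in each library. Apart from the minimum of 200 UMIs, no share of all genes was taken under these alternatives. The cap, the omission of barcodes found in both libraries, the omission of the shallow endothelial cluster and the alternatives for single clusters were chosen after seeing the data. Of the 3 genes most like each of *igfbp7*, *igfbp5b* and *igfbp1b*, 0 were among the 20 most alike by Spearman's correlation.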

Other observations

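In artery cells 4 of 12 hypoxia genes with at least 20 UMIs were 1.5-fold higher in *akt*Δ/Δ and 1 lower, with a list median of -0.19 against 0.02 over all genes, of which 10.8% were higher and 10.3% lower. Of the higher ones *p4ha1b*, a gene of collagen hydroxylation, was at 25.8 CPM in *akt*Δ/Δ and 13.6 CPM in WT artery cells, a ratio of 0.92 (0.45 to 1.41). *egln3*, *slc2a1b* and *ddit4* had at most 16 UMIs in a library, as did the lower *ankrd37* in *akt*Δ/Δ, and their intervals included 0. In vein cells 0 of 16 hypoxia genes were higher and 2 lower, with a list median of -0.40 against -0.09 over all genes, of which 7.72% were higher and 15.5% lower. Of these *adma* was at 2.76 CPM in *akt*Δ/Δ and 8.35 CPM in WT vein cells, a ratio of -1.60 (-2.03 to -1.18), while *plin2* had 1 and 19 UMIs. FoxO genes in vein cells numbered 2 higher and 3 lower of 23, near those shares of all genes, with *gadd45aa* at -1.71 (-2.65 to -0.84) and *bcl2l11*, a cell death gene, at 0.59 (0.35 to 0.84). In artery cells 1 of 20 was higher, *irs2b*, and 3 were lower, *foxo3b*, *irs2a* and *gadd45aa*, against 10.8% and 10.3% of all genes.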
